A study of Mus musculus with 4 samples.

Results

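The interleukin-1 (IL-1) family was followed here through 10 genes in fibrotic mouse liver, from mice given granulocyte colony-stimulating factor (G-CSF) or its vehicle. The members were chosen by name: the cytokines Il1a, Il1b, Il18 and Il33, the receptor chains Il1r1, Il1rap and Il1r2, the soluble inhibitors Il1rn and Il18bp, and the processing enzyme Casp1. All 10 were found among the 18193 genes represented on the arrays, on 17 probe sets that each list 1 gene, and all 10 passed the filter on low signals. The C57BL/6 mice of both groups had 30 injections of carbon tetrachloride, a liver toxin that causes fibrosis, at 1 ml/kg. Over the last 7 days they received either 100 µg/kg of recombinant human G-CSF or vehicle, which was mouse serum albumin at 0.1% in phosphate-buffered saline (PBS). Each group has 2 samples, and each sample was measured on 1 Affymetrix array, so PBS 1, PBS 2, G-CSF 1 and G-CSF 2 are the 4 arrays of the study; paired values are given in the order of replicates 1 and 2. The labels give the source as liver tissue and the cell type as bone marrow-derived cells, and they name no sort, so whether a signal stands for whole liver or for those cells alone is not settled by them. They also do not say that samples of a group came from separate animals. The p-values therefore measure only the spread between these arrays, which may be technical.

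IL-1α and IL-1β are agonists of the signalling receptor IL-1R1, which recruits the accessory chain IL-1RAP and signals through MyD88 to NF-κB. The decoy receptor IL-1R2 binds the same agonists but lacks the intracellular signalling domain, and the antagonist IL-1RN occupies IL-1R1 without recruiting the accessory chain. Caspase-1, activated in inflammasomes, cleaves the precursors of IL-1β and IL-18, while IL-18BP neutralises IL-18, and IL-33 is released mainly from damaged tissue cells. In liver, macrophages and infiltrating neutrophils and monocytes are known producers of IL-1β, and the decoy receptor is carried by neutrophils.

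The promoters of Il1r2, Il1b and Casp1 are shown because these 3 members were at least 2-fold apart between the groups with no overlap. RefSeq promoter entries in build GRCm38.p6 were matched for 10 of 10 members, and the 250 bases before the annotated start are printed 5′ to 3′ on the gene's strand. They lie at chr1:40085843-40086092 on the plus strand for Il1r2, chr2:129371140-129371389 on the minus strand for Il1b and chr9:5298267-5298516 on the plus strand for Casp1. Capitals mark every match on either strand to the motifs searched.
Il1r2: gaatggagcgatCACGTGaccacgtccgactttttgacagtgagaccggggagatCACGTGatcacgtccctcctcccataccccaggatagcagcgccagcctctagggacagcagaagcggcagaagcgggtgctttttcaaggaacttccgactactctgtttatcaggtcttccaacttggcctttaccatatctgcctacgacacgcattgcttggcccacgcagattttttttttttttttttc
Il1b: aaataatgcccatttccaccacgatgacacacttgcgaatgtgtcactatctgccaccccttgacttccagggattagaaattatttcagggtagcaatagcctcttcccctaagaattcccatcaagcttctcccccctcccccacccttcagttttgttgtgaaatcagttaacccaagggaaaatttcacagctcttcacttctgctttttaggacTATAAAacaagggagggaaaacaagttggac
Casp1: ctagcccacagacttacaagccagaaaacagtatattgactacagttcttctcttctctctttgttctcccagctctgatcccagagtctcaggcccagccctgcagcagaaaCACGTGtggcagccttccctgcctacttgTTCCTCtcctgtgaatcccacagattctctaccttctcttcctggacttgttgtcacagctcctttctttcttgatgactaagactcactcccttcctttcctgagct

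The Il1r2 window held 2 matches to the E-box CACGTG, which begin 238 and 195 bases before the start, and the Casp1 window held 1 that begins 137 bases before it. Of 32851 promoter windows of the same length, 6.02% held this motif and 0.429% held it more than once. The Il1b window held the TATA motif TATAAA from 31 to 26 bases before the start, as did 12.4% of all windows at any position. The Casp1 window held 1 match to GAGGAA, the core bound by the myeloid factor PU.1, on the opposite strand, as did 23.3% of all windows. None of the 3 windows held the C/EBP motif TTGCNNAA, the AP-1 motif TGANTCA or the NF-κB consensus, which were found in 9.56%, 6.75% and 7.25% of windows. The matches did not overlap one another, and the E-box was added to the search after the sequences had been read.

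Array-wide properties differed between samples. The correlation of PBS 1 with the other arrays over 12187 tested genes was 0.813 to 0.844, against 0.939 to 0.974 among the other arrays. The ratio of 3′ to 5′ signal of the Gapdh control, a measure of RNA integrity, was 15.7 and 14.8 on the PBS arrays and 20.2 and 19.1 on the G-CSF arrays. For the Actb control it was 11.2 and 9.88 on the PBS arrays and 12.6 and 13.7 on the G-CSF arrays. The 3′ signal of both controls thus far exceeded the 5′ signal on every array, and the part of this in the results was not tested. Hepatocyte markers were abundant on every array, with Alb, serum albumin, at 43301 and 46068 on the PBS arrays and 52315 and 46302 on the G-CSF arrays. The 8 tested hepatocyte markers summed to 185929 in PBS 1 and to 260736 to 295879 on the other arrays. The 10 tested T cell markers, which include the T cell receptor chain Cd3g, summed to 18280 in PBS 1 and to 3499 to 4908 elsewhere. In such bulk samples, fewer cells of a type and less RNA per cell cannot be told apart.

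The decoy receptor Il1r2 stood far above the rest of the family in its difference between groups, at 12.1-fold higher with G-CSF. Il1b and Casp1 were 2.43-fold and 2.23-fold higher, with both G-CSF arrays above both PBS arrays. The other 7 members, among them the signalling receptor Il1r1 and the antagonist Il1rn, lay within 1.36-fold in either direction. After Benjamini-Hochberg adjustment over all genes, limma called 0 of 10 members and 0 of 12187 genes tested (0%), and the unadjusted p was below 0.05 for 2 members, Il1r2 and Il1b, beside 3.52% of genes tested. By size, 3 of 10 members (30.0%) were at least 2-fold higher without overlap, beside 4.04% of genes tested. Each difference below is the G-CSF mean less the PBS mean of log2(signal + 23), given with its standard error (SE) from the fit (n = 2 arrays per group). The added constant makes differences of weak signals smaller. The median difference of the members was 0.39, beside 0.07 over all genes tested.

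**Figure D1:**
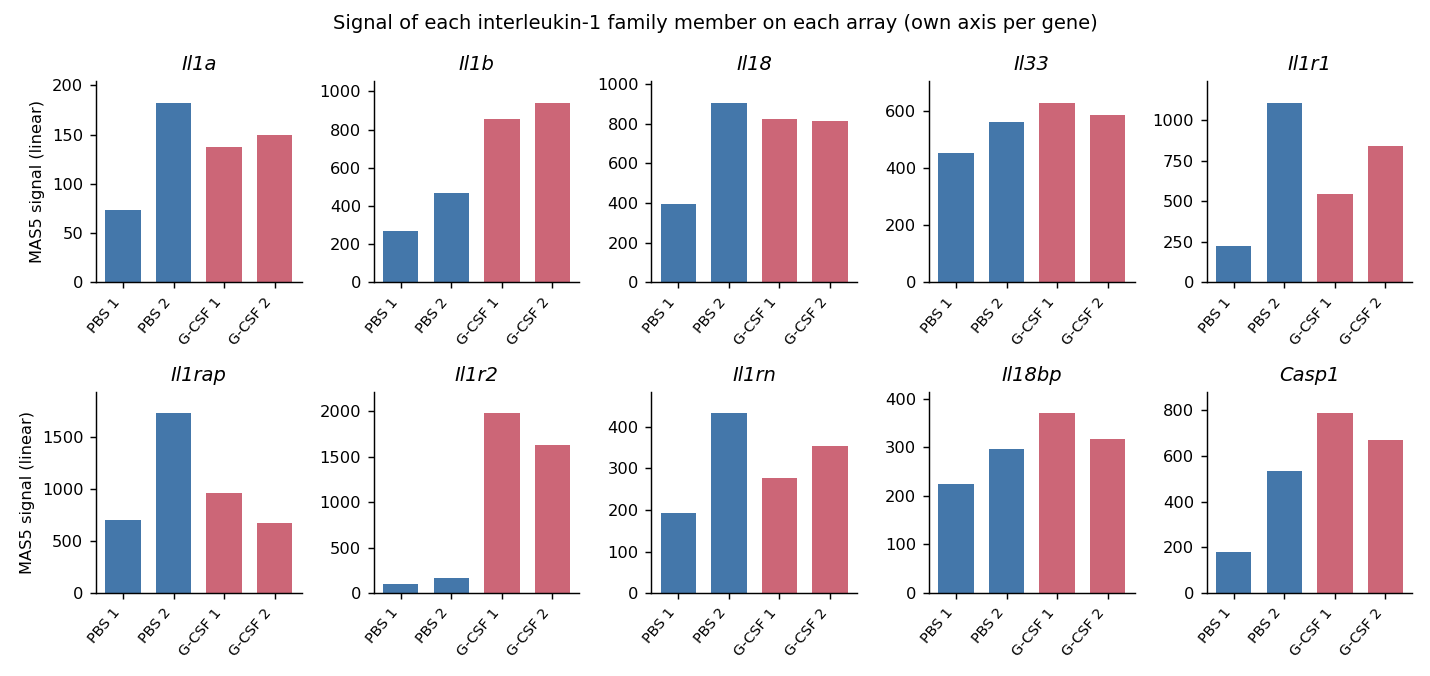
MAS5 signal on a linear scale (vertical axes, 1 per gene, starting at 0) on each of the 4 arrays for the 10 members; blue bars are PBS and red bars G-CSF, 1 bar per array with no error. Il1r2 was 95.5 and 168 on the PBS arrays and 1978 and 1624 on the G-CSF arrays, and PBS 1 was the lowest array for 9 of 10 members.

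Among the agonists, Il1b, which encodes the secreted cytokine IL-1β, had signals of 269 and 469 on the PBS arrays and 858 and 941 on the G-CSF arrays. Both G-CSF arrays lay above both PBS arrays, and the G-CSF pair was close together. The difference was 1.28 ± 0.39 (SE; limma, adjusted p = 0.988), and it was 1.66 against PBS 1 alone and 0.91 against PBS 2 alone. Il1a, which encodes the mostly cell-associated agonist IL-1α, had signals of 73.8 and 182 on the PBS arrays and 138 and 150 on the G-CSF arrays. The G-CSF values thus fell between the PBS values, and the PBS 1 signal was not above the background of its array. The Il1a difference was 0.24 ± 0.51 (limma, adjusted p = 0.988), at 0.78 against PBS 1 alone and −0.30 against PBS 2 alone. Of this pair of neighbouring genes on chromosome 2, only Il1b showed groups without overlap; the difference between the genes was not tested.

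Il18, which encodes a caspase-1 substrate made by macrophages, had signals of 394 and 907 on the PBS arrays and 823 and 813 on the G-CSF arrays. The 2 G-CSF arrays were nearly equal and lay inside the PBS range. The difference was 0.43 ± 0.48 (limma, adjusted p = 0.988), with values of 1.01 against PBS 1 alone and −0.14 against PBS 2 alone. Il33, a nuclear alarmin of stromal and endothelial cells, had signals of 454 and 564 on the PBS arrays and 631 and 587 on the G-CSF arrays. Both G-CSF arrays were slightly higher, and the difference of 0.26 ± 0.32 (limma, adjusted p = 0.988) was smaller than its SE.

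Of the receptor chains, Il1r1, the signalling receptor, had signals of 227 and 1108 on the PBS arrays and 546 and 842 on the G-CSF arrays. The PBS arrays enclosed both G-CSF arrays and were further apart than for any other member, with a log2 SD of 1.54. The Il1r1 difference was 0.40 ± 0.77 (limma, adjusted p = 0.988), and its sign depended on the PBS array, at 1.49 against PBS 1 and −0.69 against PBS 2. Il1rap, the accessory chain, had signals of 700 and 1729 on the PBS arrays and 965 and 671 on the G-CSF arrays on its brightest probe set. PBS 2 was the highest array there and G-CSF 2 the lowest, the one member for which PBS 1 was not lowest. The difference was −0.44 ± 0.53 (limma, adjusted p = 0.988), at 0.20 against PBS 1 alone and −1.08 against PBS 2 alone. The other 4 Il1rap probe sets gave differences of 0.41 to 0.60, and 1 of them was above background on all 4 arrays, with signals of 200 and 303 on the PBS arrays and 360 and 344 on the G-CSF arrays. The probe sets thus disagreed in sign, and which transcript form each detects was not analysed here.

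Il1r2, the decoy receptor, had signals of 95.5 and 168 on the PBS arrays and 1978 and 1624 on the G-CSF arrays. The G-CSF arrays were far above both PBS arrays. PBS 1 did not exceed its array's background, so the fold rests on weak PBS signals. The difference was 3.59 ± 0.39 (limma, adjusted p = 0.112), the largest of the members and the 34th highest of 12187 genes. It was 3.94 against PBS 1 alone and 3.25 against PBS 2 alone, and 3.09 with 4 times the pseudocount. Without PBS 1 limma called Il1r2 (adjusted p = 0.00133), as it did without PBS 2 (adjusted p = 0.000201), where 4.23% and 38.5% of genes tested were called. With array weights limma also called it (adjusted p = 0.0253), beside 0.271% of genes tested. It was not called without G-CSF 1 or without G-CSF 2, where 0.0492% and 0.181% of genes tested were called, and the highest adjusted p over the alternatives was 0.269.

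Among the inhibitors, Il1rn, the receptor antagonist, had signals of 192 and 432 on the PBS arrays and 277 and 352 on the G-CSF arrays. The G-CSF arrays lay within the PBS range. The difference was 0.10 ± 0.48 (limma, adjusted p = 0.994), at 0.64 against PBS 1 alone and −0.44 against PBS 2 alone. A further Il1rn probe set above background on all 4 arrays had 211 and 331 on the PBS arrays and 325 and 290 on the G-CSF arrays, and the remaining one was below background throughout. Il18bp, the IL-18 binding protein, had signals of 225 and 297 on the PBS arrays and 370 and 316 on the G-CSF arrays. Its groups did not overlap, but the difference of 0.37 ± 0.35 (limma, adjusted p = 0.988) was about as large as its SE.

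Casp1, the protease that matures IL-1β and IL-18, had signals of 180 and 534 on the PBS arrays and 787 and 671 on the G-CSF arrays. Both G-CSF arrays were higher than both PBS arrays, with PBS 2 much nearer to them than PBS 1. The difference was 1.16 ± 0.55 (limma, adjusted p = 0.988), and it was 1.88 against PBS 1 alone and 0.43 against PBS 2 alone.

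**Figure D2:**
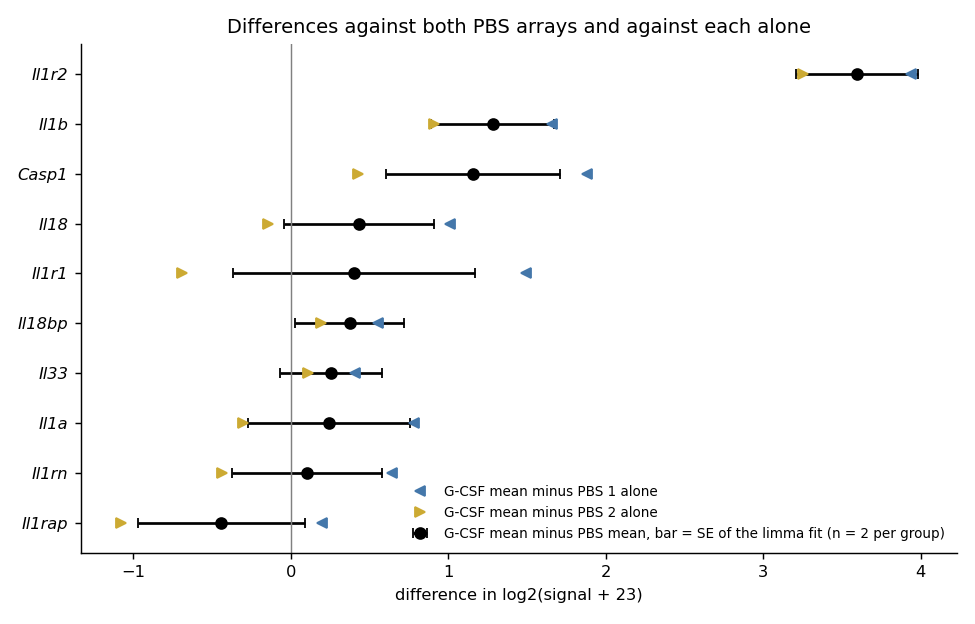
Difference in log2(signal + 23) (horizontal axis) for each member (vertical axis); black points are G-CSF minus PBS means with the SE of the limma fit (n = 2 per group), and triangles use PBS 1 or PBS 2 alone. For Il1r2 the difference was 3.94 and 3.25 against the single PBS arrays, whereas for Il1a, Il1rn, Il1r1, Il18 and Il1rap it took opposite signs.

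The family as a whole followed the PBS array used. PBS 1 was the lowest array for 9 of 10 members, beside 47.0% of genes tested, and PBS 2 was the highest for 5 of 10. Against PBS 1 alone, 5 members were at least 2-fold higher, beside 16.5% of genes tested; these were Il1b, Il1r1, Il1r2, Il18 and Casp1, the members that limma called without PBS 2, where 38.5% of genes tested were called. Against PBS 2 alone only Il1r2 was, beside 4.48% of genes tested. The members' median difference was 0.90 against PBS 1 and −0.02 against PBS 2, where the medians over all genes were 0.19 and 0.00066. Groups without overlap and higher with G-CSF were found for 5 of 10 members, Il1b, Il1r2, Il18bp, Il33 and Casp1, beside 18.6% of genes tested.

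Agonists were set against the decoy and the antagonist by the change, between groups, of the log2 difference of both genes on the same array. For Il1r2 against Il1b this difference, relative to its PBS mean, was 0.033 and −0.033 on the PBS arrays and 2.52 and 2.10 on the G-CSF arrays. The mean change was 2.31, or 4.96-fold, in favour of the decoy, with a log2 SD of 0.046 between PBS arrays and 0.29 between G-CSF arrays. It rests in part on the PBS 1 signal of Il1r2, which was not above background, as does the next comparison. For Il1r2 against the signalling receptor Il1r1 the values were 0.75 and −0.75 on the PBS arrays and 3.63 and 2.75 on the G-CSF arrays, a change of 3.19. For the antagonist Il1rn against Il1b they were −0.17 and 0.17 on the PBS arrays and −1.28 and −1.08 on the G-CSF arrays. The antagonist was lower relative to Il1b by 2.27-fold, a log2 change of −1.18, so the decoy and the antagonist differed in opposite directions relative to this agonist. Il1rn against Il1a, where the PBS 1 signal of Il1a was not above background, gave −0.14, with G-CSF values of −0.25 and −0.029. Il18bp against Il18 gave −0.061, with PBS values of 0.40 and −0.40 that enclosed the G-CSF values of 0.036 and −0.16. With 2 arrays per group the two-sided exact permutation test cannot give a p below 0.333; the first 4 of these 5 pairs had that p (0.417 adjusted over the 5 pairs) and the last had 1.

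**Figure D3:**
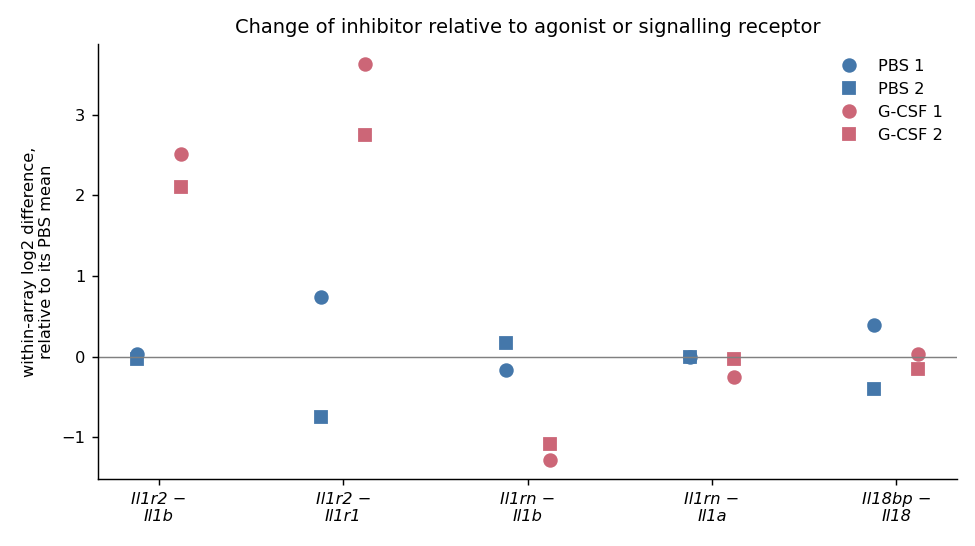
Within-array log2 difference of the first minus the second gene (vertical axis), relative to its mean over the PBS arrays, for 5 pairs; each point is 1 array, blue for PBS and red for G-CSF. For Il1r2 minus Il1b the G-CSF arrays were at 2.52 and 2.10, and for Il1rn minus Il1b at −1.28 and −1.08.

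Other genes of the pathway were taken from 5 lists, in which 49 genes were tested. As measured, 13 differed at least 2-fold with no overlap, a share of 26.5% beside 5.56% of genes tested in either direction. For 1 of these, Il1f9, both PBS arrays were at background and the difference is only a lower bound under 2-fold. With such groups taken at their bound, 11 genes were at least 2-fold higher and 1 at least 2-fold lower, a share of 24.5% beside 5.13% of genes tested. Of these 12 genes, 11 were at least 2-fold apart against PBS 1 alone and 5 against PBS 2 alone, namely Il18rap, Il18r1, Saa3, Lcn2 and Mmp3. The other 7 (Naip2, Casp4, Panx1, Myd88, Peli2, Cxcl5 and Cxcl2) were under 2-fold against PBS 2. Limma called 0 of the 49 after adjustment, and 8 had an unadjusted p below 0.05, beside 3.52% of genes tested. Among other receptors of the family, the 2 chains of the IL-18 receptor were the furthest apart. Il18rap, the accessory chain, had signals of 91.7 and 161 on the PBS arrays and 742 and 664 on the G-CSF arrays, a difference of 2.32 ± 0.39 (limma, adjusted p = 0.324) that was 2.66 against PBS 1 alone and 1.98 against PBS 2 alone. Il18r1, the ligand-binding chain, had 48.5 and 143 on the PBS arrays and 488 and 390 on the G-CSF arrays, a difference of 2.07 ± 0.52 (limma, adjusted p = 0.837) that was 2.68 and 1.47 against the single PBS arrays. For both, the G-CSF arrays lay far above the PBS arrays, of which only PBS 2 was above background.

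Il1rl2, the IL-36 receptor, and Sigirr, an inhibitory receptor, differed by 0.23 ± 0.38 and 0.11 ± 0.34, with overlapping groups. In the RefSeq gene order of chromosome 1 (assembly GRCm38.p6), Il1r2, Il1r1, Il1rl2, Il1rl1, Il18r1 and Il18rap follow each other. The genes at both ends of this row, Il1r2, Il18r1 and Il18rap, had the differences of 2-fold or more, and Il1r1 and Il1rl2 between them did not; Il1rl1 was not analysed here. Of the other ligands, 1 of 5 measured genes passed the filter on low signals. This was Il1f9, which encodes the epithelial cytokine IL-36γ, with signals of 76.6 and 39.5 on the PBS arrays and 171 and 124 on the G-CSF arrays. It passed through its G-CSF signals. Its PBS arrays were both not above background, so it was at least 1.37-fold higher with G-CSF.

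In the inflammasome list 14 genes were tested and their median difference was 0.36. Naip2, a sensor of bacterial secretion proteins, had signals of 376 and 842 on the PBS arrays and 1388 and 1468 on the G-CSF arrays. Casp4, an inflammatory caspase that responds to lipopolysaccharide, had 206 and 324 on the PBS arrays and 543 and 557 on the G-CSF arrays. Panx1, a membrane channel, was the 1 gene at least 2-fold lower without overlap, at 847 and 385 on the PBS arrays and 168 and 356 on the G-CSF arrays. Their differences were 1.30 ± 0.47, 1.02 ± 0.37 and −1.14 ± 0.56. Against PBS 1 alone and PBS 2 alone they were 1.86 and 0.75 for Naip2, 1.33 and 0.72 for Casp4, and −1.69 and −0.60 for Panx1. Card6, a caspase recruitment domain protein, differed by 0.91 ± 0.42 and Mefv, which encodes the sensor pyrin, by 0.88 ± 0.44. Nlrp3, the sensor of the best-known IL-1β inflammasome, differed by 0.64 ± 0.37, and Pycard, its adaptor, by 0.31 ± 0.40.

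In the list of receptor-proximal signalling, the median of 18 genes was 0.035, with 10 higher and 8 lower. Myd88, the adaptor shared by IL-1 and Toll-like receptors, had signals of 666 and 1790 on the PBS arrays and 2503 and 2640 on the G-CSF arrays. Peli2, a ubiquitin ligase of the pathway, had 149 and 281 on the PBS arrays and 441 and 470 on the G-CSF arrays. These were the 2 genes of that list at least 2-fold apart without overlap, with differences of 1.21 ± 0.54 and 1.06 ± 0.41. Against PBS 1 alone and PBS 2 alone these were 1.91 and 0.52 for Myd88, and 1.47 and 0.65 for Peli2. Irak3, an inhibitor of the receptor complex, differed by 0.80 ± 0.49 and Irak2, a kinase of it, by 0.74 ± 0.45. Tab3, which links TRAF6 to the kinase TAK1, lay in the opposite direction, with 1718 and 552 on the PBS arrays and 519 and 518 on the G-CSF arrays. Its difference of −0.89 ± 0.59 was −1.68 against PBS 1 alone and −0.086 against PBS 2 alone.

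Among 12 tested genes that respond to IL-1, 5 were at least 2-fold higher without overlap, beside 4.04% of genes tested. In that list 7 genes were higher and 5 lower. Its median difference was 0.22, at 0.86 against PBS 1 alone and −0.07 against PBS 2 alone. Saa3, an acute-phase protein made outside hepatocytes, had signals of 229 and 1838 on the PBS arrays and 7462 and 7197 on the G-CSF arrays. Lcn2, a siderophore-binding protein also stored in neutrophil granules, had 2536 and 9128 on the PBS arrays and 34540 and 24627 on the G-CSF arrays. Their differences were 3.43 ± 0.95 and 2.59 ± 0.65, and each was far larger against PBS 1 alone than against PBS 2 alone. On the log2 scale these were 4.87 and 1.98 for Saa3 and 3.51 and 1.67 for Lcn2. The chemokines Cxcl5 and Cxcl2 attract neutrophils. Cxcl5 had signals of 42.2 and 194 on the PBS arrays and 357 and 317 on the G-CSF arrays, a difference of 1.60 ± 0.65 that was 2.46 against PBS 1 alone and 0.73 against PBS 2 alone. Cxcl2 had 45.5 and 181 on the PBS arrays and 329 and 271 on the G-CSF arrays, a difference of 1.45 ± 0.61 that was 2.23 and 0.66 against the single PBS arrays. For both chemokines PBS 1 was not above background. Mmp3, stromelysin, differed by 1.41 ± 0.51, and it was the one of these 5 genes with PBS 2 lowest, at 0.85 against PBS 1 alone and 1.97 against PBS 2 alone. Cxcl1, another such chemokine, differed by 0.16 ± 0.58, with 1303 and 3845 with PBS enclosing 2371 and 2635 with G-CSF. The hepatocyte acute-phase genes Saa1 and Saa2 differed by −0.62 ± 1.02 and −0.30 ± 0.80, with PBS 2 the highest array for both. Il6, Ptgs2, Nos2 and Csf3 were not above background on any array, and Tnf was above it on 1 array per group.

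**Figure D4:**
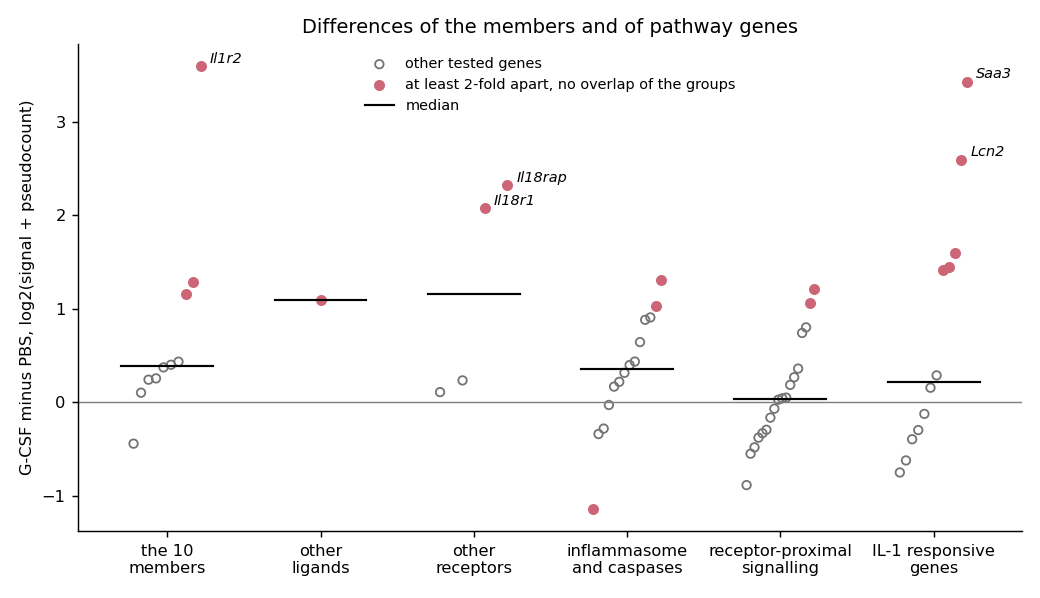
Difference between G-CSF and PBS in log2(signal + 23) (vertical axis) for each tested gene of the 10 members and of 5 pathway lists (horizontal axis); filled points were at least 2-fold apart as measured with no overlap, Il1f9 included, and bars are medians. Il1r2, Saa3, Lcn2, Il18rap and Il18r1 had the 5 highest differences.

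Markers of other cells separated the groups or single arrays. All 13 tested neutrophil markers of a list of 16 were at least 2-fold higher without overlap, beside 4.04% of genes tested. They summed to 23358 and 10454 on the PBS arrays and 176938 and 145133 on the G-CSF arrays, with most of each sum from S100a8 and S100a9. Cxcr2 and Cd177 passed the filter on low signals through their G-CSF signals. On the PBS arrays Cxcr2 had 37.4 and 23.5, both not above background, and Cd177 had 129 and 48.0. Cxcr2 was thus at least 8.51-fold higher with G-CSF. Csf3r, the G-CSF receptor carried by neutrophils, had signals of 167 and 265 on the PBS arrays and 3302 and 3496 on the G-CSF arrays. Of 7 tested monocyte markers, 3 were at least 2-fold higher without overlap. F13a1, a coagulation factor subunit, had signals of 48.9 and 216 on the PBS arrays and 1457 and 1936 on the G-CSF arrays, a difference of 3.70 that ranked 29th of 12187 genes. Vcan, a proteoglycan, was 3.80-fold higher and Ccr2, the chemokine receptor of inflammatory monocytes, 3.28-fold higher. The summed monocyte signal, of which Csf1r and Fn1 made up most, was 22911 and 51991 on the PBS arrays and 44451 and 48100 on the G-CSF arrays. Of 8 tested Kupffer cell markers none was at least 2-fold apart without overlap, with sums of 20944 and 55705 on the PBS arrays and 40004 and 34185 on the G-CSF arrays. The neutrophil markers, and F13a1, Vcan and Ccr2, were higher on both G-CSF arrays, as were Il1r2, Il1b, Casp1, Il18r1 and Il18rap. Between the PBS arrays the neutrophil sum, most of it S100a8 and S100a9, was higher in PBS 1. There Il1r2, Il1b, Casp1, Il18r1 and Il18rap were lower. Of the 13 neutrophil markers, 6 were lowest in PBS 1, as Il1r2 was, among them Csf3r, Trem3 and Clec4e. The other neutrophil markers were lowest in PBS 2. The part of these neutrophil and monocyte markers in the differences of the IL-1 family genes was not tested. For the stromal sources of Il33, 10 tested stellate cell and fibroblast markers summed to 59607 in PBS 1 and to 92048 to 106134 elsewhere, and 8 endothelial markers to 3007 in PBS 1 and 6694 to 8919 elsewhere. In each of these lists 1 gene was at least 2-fold higher without overlap, Acta2 at 1.24 and Vwf at 1.32 on the log2 scale, and these were 1.59 and 0.58 against PBS 2 alone. The 5 tested mast cell and basophil markers summed to 980 and 885 on the PBS arrays and 1365 and 1133 on the G-CSF arrays. Of these, the basophil protease Mcpt8 had signals of 33.6 and 11.1 on the PBS arrays and 193 and 249 on the G-CSF arrays, and Ms4a2, a chain of the IgE receptor, had 18.3 and 63.6 against 232 and 108. Both passed the filter on low signals through their G-CSF signals. They were at background on both PBS arrays, so they were at least 1.97-fold and 1.48-fold higher, and their part in the differences above was likewise not tested. The other tested genes of this list, Kit, Gata2 and Cpa3, differed by 0.06, 0.36 and −0.24, with overlapping groups. Cpa3 was at −1.49 against PBS 1 alone and 1.01 against PBS 2 alone. The sums of 7 B cell markers were 2120 to 2673, with Cr2 higher by 1.42 and Blk, which was 1882 in PBS 1, lower at −1.90; against PBS 2 alone these were 0.89 and −0.29. The T cell markers Cd247, Cd8b1, Cd28, Cd2 and Cd5 were at least 2-fold lower without overlap, and against PBS 2 alone only Cd28 was, at −1.13. Of the 10 tested T cell markers, 8 were lower with G-CSF and 2 higher. Zap70 was higher without overlap, at 1155 and 1352 on the PBS arrays and 1762 and 1796 on the G-CSF arrays. Cd8a differed by 0.11 with overlapping groups. The T cell markers had their highest sum in PBS 1, where both IL-18 receptor chains were lowest, and a link between these was not tested.

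The tested genes with the most similar profiles were found by the Euclidean distance between log2 profiles, each centred on its mean over the 4 arrays. For Il1r2 they were Pram1 (distance 0.14), Trem3 (0.23) and Clec4e (0.29). Pram1 had signals of 135 and 199 on the PBS arrays and 2546 and 2025 on the G-CSF arrays, and Trem3 and Clec4e are in the neutrophil list. For Il1b the nearest were Lyl1 (0.073), Med12l (0.074) and Ifnlr1 (0.080), and for Casp1 they were Unc93b1 (0.069), Cpne8 (0.098) and Inpp5j (0.10). The profiles rest on 4 arrays that all genes share.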

How the data were processed

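Total RNA of 4 samples was labelled and hybridised to 1 Affymetrix array each. Per the labels, the authors computed MAS5 signals; the deposited intensity values, 1 per array for 45101 probe sets, are linear. Sources used here give no MAS5 version. All arrays shared a 2% trimmed mean of 497 over non-control probe sets, so they were not scaled again. Gene symbols came from the platform table, matched by Entrez ID to RefSeq symbols. The brightest probe set on average stood for each gene, and the 12187 genes with a mean above 95.0, the median of non-control probe sets, were tested. A pseudocount of 23 (the median of all values, 92.9, divided by 4) was added before log2. The fit used limma 3.58.1 under R 4.3.3 (lmFit, eBayes with a trend, two-sided, Benjamini-Hochberg at 0.05; degrees of freedom 2 residual and 3.13 prior), tested on simulated data. An array's background was the brightest of 27 control probe sets whose bacterial target was not spiked in, 63.0 to 106, and a group at background on both arrays gives a lower bound. With an array left out, probe sets and genes tested were kept, and a lone array was assumed to vary like the other group. By rule the text names all members, up to 5 genes per pathway list by p, all pathway genes at least 2-fold apart without overlap, leading cell markers and, outside the neutrophil list, markers so apart, and the 3 most similar genes per such member. A few pathway genes (Nlrp3, Pycard, Cxcl1, Saa1, Saa2, Tnf and those at background) were named for their role, after their values were seen. The markers Cx3cr1, Cd14, Cxcr2 and Cd177 were also named after their values were seen. Members, lists and motifs were chosen with earlier results of these data known. Arrays give no read depth, and their number limits precision.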

Additional observations from a re-analysis of the deposited data

How the results depend on the processing

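Il1r2, Il1b, Il18bp, Il33 and Casp1 kept a positive difference under every alternative run. Their groups did not overlap, so leaving out 1 array could not have changed the sign. Il1b and Il18bp have no value with specific probe sets only. Il1r2 ran from 3.09 to 3.94, Il1b from 0.91 to 1.66 and Casp1 from 0.43 to 1.88. Fits without the trend, with robust eBayes, with array weights or with a replicate block changed only p-values. The differences from those fits are counted below but could not reverse. Of 138 member differences recomputed, 123 kept direction and side of the threshold, 8 were newly called and 7 reversed. With one array left out, the difference ran from −0.30 to 0.78 for Il1a, −0.44 to 0.64 for Il1rn, −0.69 to 1.49 for Il1r1, −0.14 to 1.01 for Il18 and −1.08 to 0.20 for Il1rap, and the change of Il18bp against Il18 from −0.46 to 0.33. For all 10 members the lowest of these values came without PBS 1 and the highest without PBS 2, and Il1rn also reversed without G-CSF 2 (−0.060). With the mean of all probe sets Il1rap gave 0.33, where its dimmer probe sets count equally. Members called by limma numbered 0 to 5 with one array left out: 1 without PBS 1 and 5 without PBS 2 (Il1b, Il1r1, Il1r2, Il18 and Casp1). Array weights gave 1 call, Il1r2 (adjusted p = 0.0253), beside 0.271% of genes tested. With the replicate number as a block limma also gave 1 call, Il1r2 (adjusted p = 6.73e-05), and 92 genes in all against 0; the numbers share no stated origin, and the correlation of same-numbered deviations was −0.038. With one array left out, the number of members at least 2-fold apart without overlap depended on the PBS array kept. Members higher against each PBS array are given above beside the share of genes tested. Members at least 2-fold apart without overlap numbered 2 with 4 times the pseudocount, where Casp1 was at 0.99. Pathway genes so apart numbered 4 with the 75th percentile filter, which tests fewer genes, 12 with Il1f9 at its bound (chosen after seeing the data), and 9 to 17 with one array left out. Except for the count at the bound, no share over all genes is given for these counts by size, so they show only how the counts moved. Signals near background limit the folds of Il1r2, Il18r1, Il18rap and Il1f9.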
